A study of Homo sapiens with 6 samples.

Results

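The miR-183, miR-96 and miR-182 cluster consists of 3 stem-loops, mir-183, mir-96 and mir-182, which lie close together on chromosome 7. The members were taken as every mature sequence whose stem-loop name was mir-183, mir-96 or mir-182 in the deposited count tables, on either arm. This gave 6 mature sequences, 5p and 3p of each stem-loop, of 436 with a read. Small RNA of MDA-MB-231 cells, an estrogen-independent human breast adenocarcinoma line of basal, mesenchymal character, was sequenced from 3 samples of parental cells, kept as adherent 2D monolayer in serum-containing medium, and 3 samples of spheroid cells, kept as 3D suspension spheroids in serum-free medium. The spheroid culture was used to enrich cells with cancer stem cell properties, so the comparison asks which miRNAs differ between spheroid and parental cells. All samples share 1 cell line, and the parental cells differ from the spheroid cells in serum as well as in adherence, so the influence of these conditions cannot be told apart. Values come from 1 count table per condition, with 539798 reads for parental and 1553014 reads for spheroid cells, and neither table has a column per sample. There is thus no replicate error. All intervals are at 95% and exact (Clopper-Pearson), and for want of replicates they address counting error only. They treat each read as an independent draw. Reads copied by PCR were not collapsed by a molecular identifier, so the actual counting error can exceed what an interval shows. The sources conflict on what a table holds. In the labels, each table is given for all 3 samples of its condition, whereas the study's sample sheet enters it only beside the first replicate, and its list of read totals has a single index tag per condition. A table may therefore be 1 library, so each level and fold below may describe 1 culture per condition, and no difference can be set against the spread between cultures.

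A miRNA is cut from a stem-loop as a duplex of a 5p and a 3p arm, and the arm that is loaded into an Argonaute protein selects messenger RNAs mainly through its seed, the bases from position 2 to position 8. The miR-183 cluster is known for its high expression in sensory cells such as photoreceptors and inner-ear hair cells, where changes in the seed of miR-96 cause hearing loss, and for its raised levels in many carcinomas. In breast cancer cells, miR-182 and miR-96 are known to repress FOXO1, a transcription factor that restrains proliferation, and miR-182 also represses the DNA repair gene BRCA1. miR-183 is known to repress EZR, which encodes the cytoskeletal linker ezrin.

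The mature sequences of the more abundant arms are shown first because the members differ in the seed that sets their targets. Sequences are those of RefSeq (GRCh38.p14), 5′ to 3′, with the seed in capitals, and all 6 members matched an entry.
miR-182-5p: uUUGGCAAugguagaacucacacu
miR-96-5p: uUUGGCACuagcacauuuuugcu
miR-183-5p: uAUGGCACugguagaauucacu
The 3 seeds all differ, and each pair of them has the letters UGGCA in common. With positions counted from the 5′ end and the first-named miRNA giving the first base, the seed of miR-182-5p differed from that of miR-96-5p by A8C alone, and the seed of miR-183-5p differed from that of miR-96-5p by A2U alone. miR-182-5p and miR-183-5p differed by U2A and A8C in the seed, but were the most alike along their length, with the same base at 18 of 22 positions. miR-96-5p had the same base as miR-182-5p at 12 of 23 positions and as miR-183-5p at 13 of 22 positions. Only 5 of the 436 listed sequences held UGGCA within their bases 2 to 8, the others being miR-1271-5p and the less abundant listed sequence of mir-221.

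The 3p arms carry other seeds, which are shown because these arms were nearly absent from the tables.
miR-182-3p: uGGUUCUAgacuugccaacua
miR-96-3p: aAUCAUGUgcagugccaauaug
miR-183-3p: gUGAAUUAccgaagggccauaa
The place of both arms in the precursor is shown for MIR182 and MIR96, with the mature arms in capitals.
MIR182: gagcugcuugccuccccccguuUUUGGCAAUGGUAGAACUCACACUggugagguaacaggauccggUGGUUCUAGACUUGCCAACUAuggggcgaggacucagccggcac
MIR96: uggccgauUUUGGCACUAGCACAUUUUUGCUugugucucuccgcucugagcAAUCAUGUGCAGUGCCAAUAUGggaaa
In the MIR182 stem-loop of 110 bases, miR-182-5p spans bases 23 to 46 and miR-182-3p bases 67 to 87. In the MIR96 stem-loop of 78 bases, miR-96-5p spans bases 9 to 31 and miR-96-3p bases 52 to 73.

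In GRCh37, the build named for the study's annotation, the 3 stem-loops span 4632 bp of the minus strand of chromosome 7. In the direction of transcription MIR183 comes first (129414745 to 129414854), followed after 135 bp by MIR96 (129414532 to 129414609) and after a further 4199 bp by MIR182 (129410223 to 129410332). Each mature arm matched the sequence of chromosome 7 once. miR-183-5p lies at 129414807 to 129414828, miR-96-5p at 129414579 to 129414601 and miR-182-5p at 129410287 to 129410310. By the GENCODE release 44 annotation mapped to GRCh37, all 6 arms lie within 1 transcript of the long noncoding RNA gene ENSG00000286380 on the same strand, and none lies in an exon of it. The nearest protein-coding genes are NRF1, 13300 bp beyond MIR182, and UBE2H, 55717 bp beyond MIR183.

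The cluster was well expressed in both cell types, nearly all of it as miR-182-5p and miR-183-5p, and no member passed a 2-fold difference with an adjusted p under 0.05. Of the parental miRNA reads, 1.56% (interval 1.52% to 1.59%) were of the cluster, and of the spheroid miRNA reads 1.82% (1.80% to 1.84%). Levels below are reads per 1000000 reads of the same table (rpm), and a fold divides the spheroid level by the parental one. The summed level of the 6 members was 15560 rpm in parental and 18191 rpm in spheroid cells, a fold of 1.17 (1.14 to 1.20). The fold of a sum follows its most abundant member, here miR-182-5p.

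miR-182-5p, the last of the cluster to be transcribed, was its most abundant member. It had 7074 reads in the parental table and 23982 reads in the spheroid table, which are 13105 rpm and 15442 rpm. Its level was higher in the spheroid table, and it took rank 18 in parental and rank 13 in spheroid cells among all sequences. The fold was 1.18 (1.15 to 1.21), below the threshold of 2, although Kal's Z-test gave an adjusted p of 2.52e-33 (Benjamini-Hochberg, over all 436 sequences). What is tested here are the reads of a pair of tables and not the conditions, and at such depth small differences pass. edgeR's exact test, run with a coefficient of variation between cultures set at 0.2, gave an adjusted p of 1.

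miR-183-5p, encoded by the first stem-loop, had 1249 reads in the parental and 4038 reads in the spheroid table. This gave 2314 rpm at rank 48 in parental cells and 2600 rpm at rank 41 in spheroid cells. The fold was 1.12 (1.05 to 1.20), with an adjusted p of 0.00104 (Kal's Z-test). As with miR-182-5p, the level was higher in the spheroid table by a small margin, and the adjusted p was 1 with the assumed coefficient of variation of 0.2 (edgeR's exact test).

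miR-96-5p, encoded 135 bp downstream of MIR183, was far less abundant than its neighbours. It had 62 reads in the parental and 173 reads in the spheroid table, or 115 rpm and 111 rpm, at ranks 145 and 144. The levels in the tables were not distinguishable at this depth, with a fold of 0.970 (0.722 to 1.32) and an adjusted p of 0.886 (Kal's Z-test). The interval leaves room for a change of up to 1.32-fold higher or to 0.722 of the parental level. Its direction also depended on the scale: TMM factors gave a fold of 1.09, and factors from the median of ratios gave 1.12.

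The folds of the 3 5p arms did not differ beyond counting error. The fold of miR-182-5p was 1.05 times that of miR-183-5p (interval 0.978 to 1.12) and 1.21 times that of miR-96-5p (0.893 to 1.63). The fold of miR-183-5p was 1.16 times that of miR-96-5p (0.846 to 1.57). These ratios are taken within the tables, so that the scale drops out of them. They do not show that the members changed alike, since differences up to the ends of the intervals could not be seen.

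**Figure D1:**
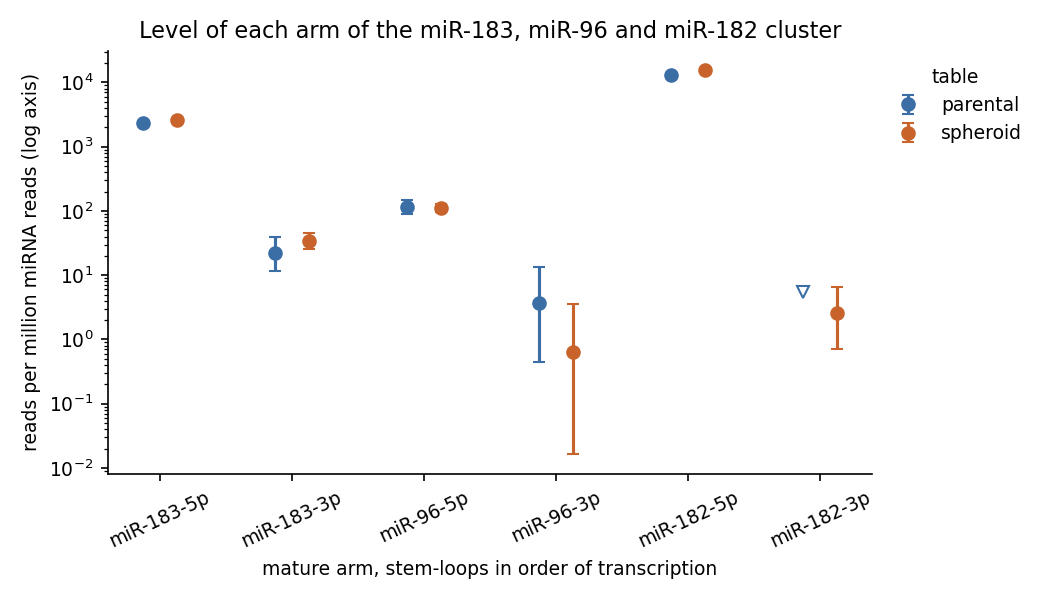
Level of each mature arm in rpm (log axis) in the parental and spheroid tables, with the stem-loops in the order of transcription. Points are the reads of 1 table, error bars are exact binomial 95% intervals, and the open triangle marks a floor of 3 reads (5.56 rpm) for miR-182-3p, which had no parental read; the 5p arms keep the order miR-182-5p, miR-183-5p, miR-96-5p in both tables.

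The 3p arms were rare. miR-183-3p had 12 and 53 reads in the parental and spheroid tables, or 22.2 rpm and 34.1 rpm, a fold of 1.54 (0.810 to 3.16). miR-96-3p had 2 reads and 1 read, and the fold of 0.174 had an interval from 0.00295 to 3.34. miR-182-3p was not listed for parental cells and had 4 reads in spheroid cells, too few to give a direction. Of the mir-183 reads, 0.952% (0.493% to 1.66%) came from the 3p arm in parental cells and 1.30% (0.972% to 1.69%) did in spheroid cells, and the intervals overlapped. For mir-96, the 3p share was 3.13% (0.381% to 10.8%) of 64 reads and 0.575% (0.0145% to 3.16%) of 174 reads. For mir-182, 0 of 7074 reads in parental cells came from the 3p arm, with an upper limit of 0.0521%, against 0.0167% (0.00454% to 0.0427%) in spheroid cells. In the spheroid table, the 3p share of mir-183 thus lay above that of mir-182, with intervals that did not overlap. The fold of miR-183-3p relative to that of miR-183-5p was 1.37 (0.718 to 2.82), so a change in arm use of mir-183 was not detectable at this depth.

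Of the 6 members, 0 were called higher and 0 were called lower in spheroid cells, where a call needs an adjusted p under 0.05 by Kal's Z-test and a fold over 2. Among all 436 sequences, 4.82% were called higher and 8.94% were called lower. At these shares, a set of 6 sequences without a call is close to the background and is no result about the cluster. With an unadjusted p, Fisher's exact test or edgeR's exact test, 0 members were called as well. These alternatives do not change a fold, so they could have called only miR-96-3p, whose fold of 0.174 rests on 2 reads and 1 read. At an unadjusted p under 0.05 (Kal's Z-test) and without regard to the fold, miR-182-5p and miR-183-5p passed. So did other abundant sequences, such as miR-21-5p, miR-10a-5p and miR-22-3p, so passing is no result about the cluster. With the library totals before annotation as scale, every fold was 2.21 times as large. On that scale, 4 of the 6 members were called higher, as were 140 of all 436 sequences. However, the parental table holds a smaller part of its library's miRNA reads than the spheroid table does, so that scale does not match the tables. The median log2 fold of the 3 5p arms was 0.17, beside -0.11 over the 183 sequences with at least 100 reads in both tables together, whose quartiles were -0.47 and 0.37. Among those 183 sequences, 50 had a smaller change than miR-182-5p, 33 a smaller change than miR-183-5p and 8 a smaller change than miR-96-5p.

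**Figure D2:**
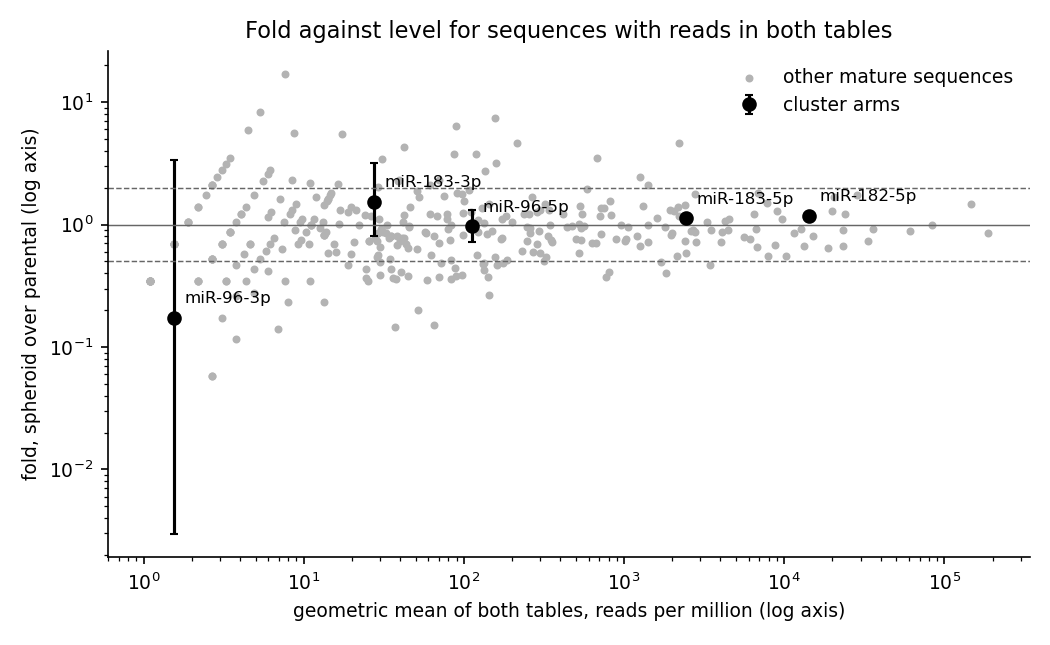
Fold of spheroid over parental (log axis) against the geometric mean level of both tables in rpm (log axis), for every sequence with reads in both tables. Black points are members of the cluster with exact 95% intervals, grey points are the other sequences, and dashed lines mark folds of 2 and 0.5; the 5p arms lie near a fold of 1, at 1.18, 1.12 and 0.970, and the 3p arms have wide intervals.

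Within the cluster, the levels spanned about 100-fold, and the order was the same in parental and spheroid cells. In parental cells, miR-182-5p had 5.66 times the reads of miR-183-5p, and miR-183-5p had 20.1 times the reads of miR-96-5p. In spheroid cells, these ratios were 5.94 and 23.3. The stem-loop mir-182 took 84.2% (83.4% to 85.0%) of the cluster's reads in parental cells and 84.9% (84.5% to 85.3%) in spheroid cells. mir-183 took 15.01% (14.3% to 15.8%) and 14.5% (14.1% to 14.9%), respectively. mir-96 took 0.762% (0.587% to 0.972%) and 0.616% (0.528% to 0.714%). The intervals of the tables overlapped for each stem-loop. Overlap is not a test of a difference, and no test of these shares was made. Mature miRNAs of 22 to 24 nucleotides are read whole, so these levels need no scaling to length, although the reads of different miRNAs also hold the preferences of adaptor ligation, which were not tested.

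The spread of levels was set beside that of 13 other clusters of stem-loops, each stem-loop being represented by its most abundant sequence. The ratio of the highest to the lowest level within the miR-183 cluster was 114 in parental and 139 in spheroid cells, and the median of the other clusters was 9.99 and 10.3, respectively. In parental cells, only the mir-17 to mir-92a-1 cluster had a wider range, at 220. In spheroid cells, that cluster, at 304, and the pair of mir-143 and mir-145, at 147, had wider ranges. The range of mir-143 and mir-145 rested on 1 and 3 reads of miR-145-3p. In the mir-17 to mir-92a-1 cluster, miR-19b-3p and miR-92a-3p are also made from another locus, as are sequences of other clusters compared here. The ranges of those clusters are thus not of 1 locus alone, whereas all reads of the miR-183 cluster counted as unique. The highest fold within the miR-183 cluster was 1.21 times the lowest, against a median of 1.48 for the other clusters, of which 4 had a narrower range of folds. Of those 4, only the cluster of mir-106b, mir-93 and mir-25 held no sequence that is also made from another locus. Clusters with more stem-loops have more room for a wide range, and no test was made of this comparison.

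**Figure D3:**
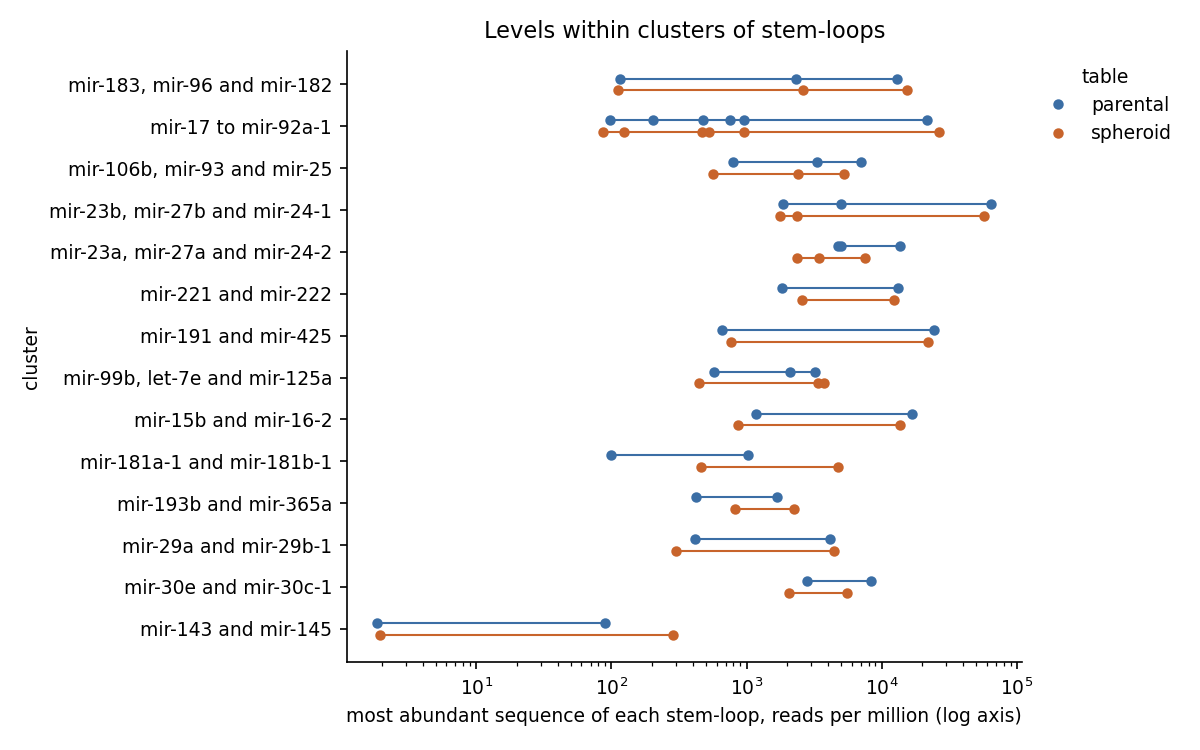
Level of the most abundant sequence of each stem-loop in rpm (log axis) for 14 clusters, with 1 line per table from the lowest to the highest member. The miR-183 cluster, at the top, spans from 115 to 13105 rpm in the parental and from 111 to 15442 rpm in the spheroid table.

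The members differed in how many of their reads equalled the annotated mature sequence, and these exact reads were in the order miR-96-5p, miR-182-5p, miR-183-5p in both tables. Exact reads were 90.3% (80.1% to 96.4%) of the miR-96-5p reads in parental and 87.9% (82.0% to 92.3%) in spheroid cells. They were 66.0% (64.9% to 67.1%) of the miR-182-5p reads in parental and 70.4% (69.8% to 71.0%) in spheroid cells. For miR-183-5p they were 25.7% (23.3% to 28.2%) and 25.2% (23.8% to 26.5%). The intervals of the 3 arms did not overlap within either table, so most miR-183-5p reads were variants in length or sequence, whereas most miR-182-5p and miR-96-5p reads were not. Over the 151 sequences with at least 50 reads in each table, the median exact share was 37.9% in parental and 34.6% in spheroid cells. By exact share, miR-96-5p stood at place 7 of these 151 in parental and place 8 in spheroid cells, miR-182-5p at places 32 and 27, and miR-183-5p at places 91 and 89. The tables do not say at which end a variant read differs, so the share of reads with another seed is unknown.

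The exact share of miR-182-5p was 4.38 percentage points higher in spheroid cells, and its intervals did not overlap between the tables. The odds of an exact read were 1.22 times as high (interval 1.16 to 1.30). For miR-183-5p, the odds ratio was 0.972 (0.839 to 1.13), and for miR-96-5p 0.776 (0.244 to 2.12), so no change was detectable in either. Of the 151 sequences, 60 had a higher exact share in spheroid than in parental cells, and 19 had a larger rise than miR-182-5p. The median change was -0.49 percentage points. Counted by exact reads alone and scaled to the exact reads of each table, the fold of miR-182-5p was 1.34 (1.30 to 1.39). That of miR-183-5p was 1.17 (1.03 to 1.34). The exact reads were 34.9% of the parental and 32.7% of the spheroid table, so the change of scale also raises these folds. All reads of the 6 members counted as unique to their mature sequence. Over all sequences, unique reads were 84.0% in parental and 84.1% in spheroid cells.

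**Figure D4:**
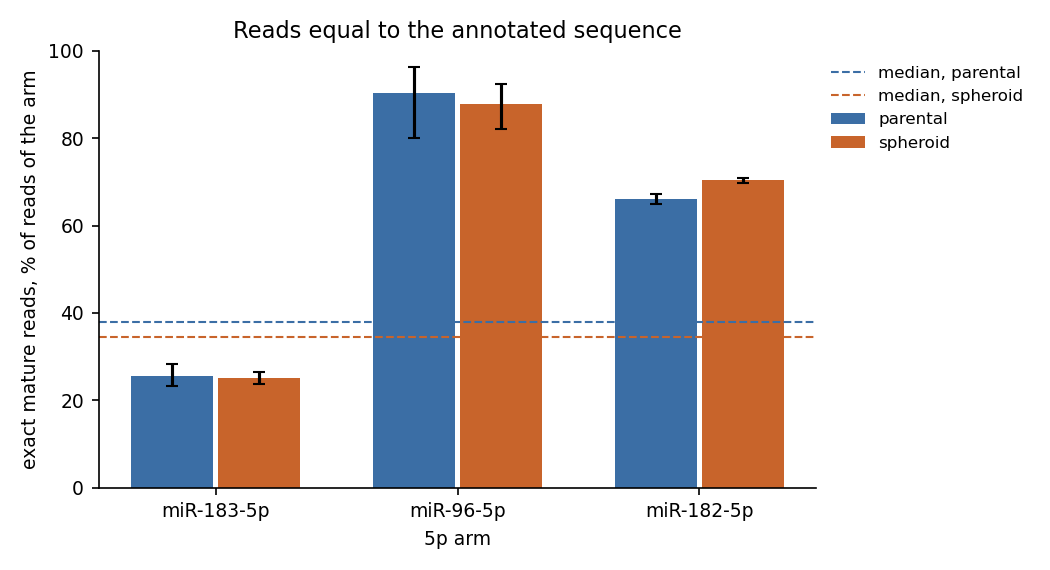
Share of the reads of each 5p arm that equal the annotated mature sequence, in percent, in the parental and spheroid tables. Bars carry exact binomial 95% intervals, and dashed lines give the median over 151 sequences (37.9% parental, 34.6% spheroid); miR-96-5p and miR-182-5p lie above the medians and miR-183-5p lies below them.

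Only miR-96-5p shares its seed with another listed sequence, miR-1271-5p of chromosome 5. Its sequence is shown to compare it with miR-96-5p.
miR-1271-5p: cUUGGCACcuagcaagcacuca
miR-1271-5p had 86 reads in parental and 219 reads in spheroid cells, or 159 rpm and 141 rpm. Its level was thus somewhat above that of miR-96-5p in both tables. Its fold was 0.885 (0.687 to 1.15), and it was not called. None of its reads in either table equalled the annotated sequence, so the seed of its reads is uncertain. Together, both miRNAs with this seed had 274 rpm in parental and 252 rpm in spheroid cells, a fold of 0.921 (0.760 to 1.12). The seed UUGGCAA was that of miR-182-5p alone, and AUGGCAC that of miR-183-5p alone.

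Among miRNAs that are known to repress FOXO1 in breast cancer cells, miR-27a-3p stood near miR-182-5p in parental but not in spheroid cells. miR-27a-3p had 7421 and 11786 reads, which are 13748 rpm in parental and 7589 rpm in spheroid cells. Its fold was 0.552 (0.536 to 0.568), short of the threshold for a lower call, while that of miR-182-5p was 1.18. The summed level of the 6 sequences of mir-27a, mir-96 and mir-182 was 27032 rpm in parental and 23199 rpm in spheroid cells, and 0 of them were called. Their median log2 fold was -0.21 over 5 sequences with a fold, beside -0.20 over all 360 such sequences.

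Other miRNAs of band 7q32 were set beside the cluster. Of 7 measured sequences of mir-129-1, mir-335, mir-29a and mir-29b-1, 1 was called higher and 0 were called lower, and mir-593 was not listed. miR-129-5p was the sequence called higher, from 25 reads in parental to 166 reads in spheroid cells, a fold of 2.31 (1.51 to 3.67), but it is also made from mir-129-2. miR-29a-3p, which represses collagen genes, was the most abundant of them, with 4163 rpm and 4431 rpm and a fold of 1.06 (1.01 to 1.12). miR-29b-3p had a fold of 0.721 (0.614 to 0.850) and is also made from mir-29b-2. miR-335-5p, which is encoded in MEST, had 1 read in each table.

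miRNAs of epithelial cells, where the miR-183 cluster is often expressed together with the miR-200 family, were at low levels. The list is not of 1 epithelial lineage, since mir-205 is known from basal cells. The 8 epithelial sequences, of mir-200a, mir-200b, mir-429, mir-200c, mir-141, mir-205, mir-203a and mir-375, summed to 70 reads in parental and 264 reads in spheroid cells, or 130 rpm and 170 rpm. This is far below the 15560 rpm and 18191 rpm of the miR-183 cluster. Of the 8 sequences, 0 were called, and their folds lay on both sides of 1. miR-200b-3p, a repressor of ZEB1, had 31 and 152 reads and a fold of 1.70 (1.15 to 2.60), whereas miR-200a-3p had 5 and 4 reads and a fold of 0.278 (0.0552 to 1.29). None of the reads of miR-200b-3p, miR-141-3p or miR-429 in either table equalled the annotated sequence, so the seed of these reads is uncertain. The folds of miR-375-3p, at 0.973 (0.609 to 1.60), and miR-203a-3p, at 0.985 (0.370 to 3.05), were near 1. The others had at most 8 reads in a table, with 1 and 8 for miR-141-3p, 1 and 6 for miR-429, 1 and 5 for miR-205-5p and 0 and 2 for miR-200c-3p.

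**Figure D5:**
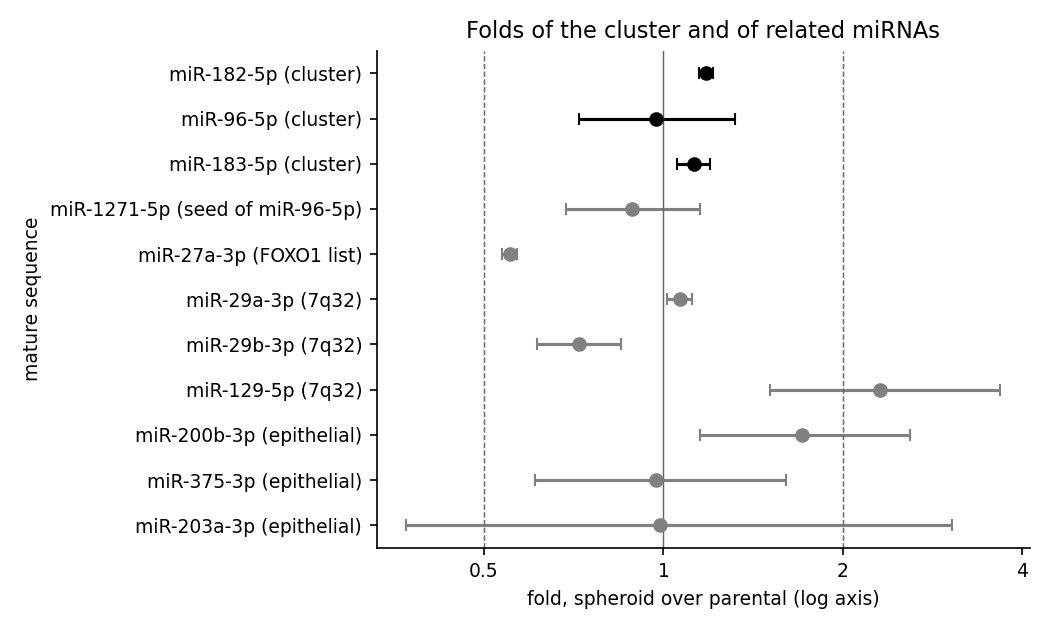
Fold of spheroid over parental (log axis) with exact 95% intervals for the 5p arms of the cluster (black) and for miRNAs with the seed of miR-96-5p, with FOXO1 as a known target, from 7q32 or from the epithelial list (grey). Dashed lines mark folds of 0.5 and 2; among those shown, miR-129-5p (2.31) lies above 2, and the 5p arms of the cluster lie between 0.970 and 1.18.

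By level in both tables, the sequences nearest to miR-182-5p were miR-221-3p, miR-16-5p and let-7i-5p, at distances of 0.34, 0.40 and 0.55 on the log2 scale of rpm. miR-221-3p, which is known for its high level in basal breast cancer cells, had 13298 rpm and 12245 rpm. The sequences nearest to miR-183-5p were the more abundant listed sequence of mir-30b, miR-423-3p and miR-26b-5p, at distances of 0.24, 0.26 and 0.28. Nearest to miR-96-5p were the less abundant listed sequence of mir-30d, miR-4454 and miR-19a-3p, at 0.20, 0.20 and 0.27. With 2 tables, this likeness covers only the level and the fold.

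Sequences listed for the labelled type of cell line were present, though they do not identify the line. The 12 sequences of mir-221, mir-222, mir-21, mir-10b, mir-100 and mir-22, abundant in basal and mesenchymal breast cells, summed to 343855 rpm in parental and 310308 rpm in spheroid cells. Of these sums, miR-21-5p alone made up 201714 rpm and 173118 rpm. Of the 12, 0 were called higher and 2 lower (miR-222-5p and miR-100-3p), beside 8.94% of all sequences called lower. Some sequences listed for other cell types were called higher, beside 4.82% of all sequences. Both sequences of mir-126 (endothelium) were, with a sum of 63.0 rpm in parental and 264 rpm in spheroid cells. So were 2 of 8 fibroblast and mural cell sequences. The sum of these 8 was 122 rpm and 361 rpm, most of it from miR-143-3p at 88.9 rpm and 284 rpm. In contrast, mir-145 had few reads, with 1 and 3 for miR-145-3p and 0 and 1 for miR-145-5p. The 4 neural and sensory sequences summed to 3101 rpm and 1722 rpm, most of it from miR-9-5p at 2892 rpm and 1608 rpm, and mir-124-1 was not listed. Of these 4, miR-204-5p was called lower, with 53 and 22 reads, while miR-9-5p (fold 0.556), miR-9-3p (fold 0.819) and miR-211-5p (1 and 17 reads, fold 5.91 with an interval from 0.926 to 247) were not called. All samples are labelled as 1 cell line, so these sums are not read as amounts of such cell types. The source of these reads, and any bearing of it on the values of the miR-183 cluster, was not tested. Of the blood markers, the red cell miRNA mir-451a and mir-223 were not listed, and the sum was 17508 rpm in parental and 22427 rpm in spheroid cells, nearly all of it from mir-486. In such bulk samples, a change in how many cells of the line hold a miRNA cannot be told apart from a change per cell.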

How the data were processed

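The authors trimmed the reads, removed those under 17 or over 27 nucleotides and counted the rest in CLC Genomics Workbench 7.0 against miRBase 19 and noncoding RNA of Ensembl GRCh37 release 57. The deposited counts are whole numbers of reads per mature sequence, variants included, with no normalization. Other deposited columns give exact and unique reads. The sample labels tie each table to all 3 samples of a condition and the study's sample sheet to the first replicate alone, so a table may be 1 library, and p-values hold no variation between cultures. Tables were joined by sequence, and 388 of 437 sequences matched a RefSeq entry. Folds, Kal's Z-test (the study's test), Benjamini-Hochberg adjustment over all 436 sequences with a read, and exact intervals used scipy 1.17.1, pandas 2.3.3 and numpy 2.4.6 in Python 3.11.15, with matplotlib 3.10.9 for plots. A sequence was called at a fold over 2 with an adjusted p under 0.05. TMM factors and an exact test came from edgeR 4.0.16, and median-of-ratios factors from DESeq2 1.42.0 (R 4.3.3). No fold was given for a table with 0 reads where a floor of 3 reads left no direction. Distances used a pseudocount of 0.5 reads. The steps were tested on simulated counts. Named miRNAs were the members, sequences sharing a seed with them, the 3 nearest in level to each 5p arm, and fixed lists (7q32, FOXO1, epithelial, basal, other cell types, clusters). Members and lists were chosen with earlier results of these data known. Alternatives were other scales, exact or unique reads (each scaled to its own total), read minimums of 10 and 50, and other tests.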

Additional observations from a re-analysis of the deposited data

How the results depend on the processing

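The folds of miR-182-5p and miR-183-5p stayed above 1 under all 12 alternatives run for each, from 1.18 to 2.60 and from 1.12 to 2.48. Other tests, the unadjusted p and the read minimums leave a fold as it is. Only the other scales and the exact or unique reads could move it. The direction of miR-96-5p changed under 5 alternatives, and of those that could move its fold only unique reads kept it. TMM factors shifted every log2 fold by 0.16, median-of-ratios factors by 0.20 and totals that leave out the top 5 sequences of either table by 0.08. With these scales, the fold of miR-96-5p was 1.09, 1.12 and 1.03, and that of the summed cluster was 1.31, 1.35 and 1.24, respectively. With library totals before annotation, every log2 fold shifted by 1.14. The folds then were 2.60 for miR-182-5p, 2.48 for miR-183-5p, 2.14 for miR-96-5p and 2.58 for the summed cluster, 4 members were called higher, and 140 sequences were called higher and 5 lower in all. The other member called was miR-183-3p. These totals hold reads that are not miRNA, and the parental table holds a smaller part of its library than the spheroid table does.

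With exact reads alone, scaled to the exact reads of each table, the fold was 1.01 for miR-96-5p and 1.33 for the summed cluster. These folds hold the change of scale as well as the choice of reads. Of the 311 sequences with an exact read, 24 were called lower and 18 higher, beside 39 and 21 of 436 with all reads. mir-182 then took 92.5% of the cluster's reads in parental and 93.5% in spheroid cells, mir-183 took 6.36% and 5.64%, and mir-96 took 1.11% and 0.842%. The 5p share of exact reads was 99.8% for mir-183 in spheroid cells and 100% for each other stem-loop and table. edgeR's exact test with an assumed coefficient of variation of 0.2 called 13 sequences higher and 8 lower, and with 0.4 it called 0 in each direction. The cause of these differences was not tested. Unique reads moved no fold of a member past the threshold, and other tests and read minimums could not, since they do not change a fold. No paired analysis was possible because the tables have no column per sample, and for the same reason no replicate could be left out. Depth limits the 3p arms most, since they had at most 53 reads in a table.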
